A study of Drosophila melanogaster with 4 samples.

Results

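The genes described here are the long noncoding RNA genes and pseudogenes of Drosophila melanogaster that gave reads in poly(A)-selected RNA from ovaries. A gene was taken if its FlyBase symbol began with lncRNA: or asRNA:, or was CR followed by digits only, and if it held at least 200 counts summed over the 4 libraries. They were therefore chosen by symbol and by total count, and the total is a measured value. Of 17023 genes counted, 2171 had such a symbol and 96 reached 200 counts. Of the rest 511 held at least 10 counts, 496 held 1 to 9 and 1068 held none. Over all symbols, 7883 genes reached 200 counts.

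The 4 libraries came from 2 genotypes with 2 libraries each. In both, NosGAL4, a driver active in germ cells, drove UAS-Dicer2, which strengthens silencing, together with an RNAi construct against aramis (aramis RNAi) or against bam (bam RNAi). Females were fed yeast and dissected 1 to 3 days after eclosion. aramis encodes a helicase used in making ribosomes, bam is the switch that lets the daughter of a germline stem cell differentiate, and bam RNAi served as the developmental control for aramis RNAi. The driver does not act in somatic cells, which the ovaries kept, and fewer cells of a type cannot be told apart from less RNA per cell in such bulk samples. Nothing in the labels says whether the 2 libraries of a genotype came from separate groups of females, so p-values measure only the spread between these libraries.

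Long noncoding RNAs are transcripts that are capped, often spliced and polyadenylated like mRNAs but hold no long reading frame that is known to be translated. Some act as RNA, such as the roX RNAs that carry the male dosage compensation complex to the X chromosome, and some are the primary transcripts from which microRNAs or small nucleolar RNAs are cut. An antisense RNA is read from the strand opposite to a coding gene, and a pseudogene is a decayed copy of a coding gene. Poly(A) selection keeps only the polyadenylated RNAs of these classes.

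The annotation went against part of that grouping. Of the 96 genes, 74 were annotated as ncRNA, 63 with the prefix lncRNA: and 11 with the prefix asRNA:, whereas all 22 genes named CR and digits only were annotated as pseudogenes. Reads of a pseudogene may be shared with its parent gene, so the counts of these 22 are uncertain. The median length of the longest transcript was 1114 nt over the 96 genes (range 214 to 21216 nt), against 2132.5 nt for the 7574 protein-coding genes with at least 200 counts. A single exon made up 39.6% of the 96 genes and 8.7% of those protein-coding genes. The X chromosome carried 26 of the 96 genes (27.1%, against 17.4% of the protein-coding genes), and the small chromosome 4 carried 5 (5.2%, against 0.9%).

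The libraries held 16754980 and 15530745 counts with aramis RNAi, against 12977013 and 14764740 with bam RNAi. The floor of 3 counts corresponded to 0.179 to 0.231 CPM (counts scaled to the library total), for counting error only. ais, the symbol of aramis in the annotation, had normalised counts of 117 and 153 with aramis RNAi, against 910 and 323 with bam RNAi, a log2 fold change of -2.19 (standard error 0.56, adjusted p = 0.00186 by DESeq2). bam had 50.3 and 72.7 with aramis RNAi, against 60.0 and 70.4 with bam RNAi, so its mRNA did not separate the genotypes. Markers of several cell types moved with the genotype: 14 of 28 germline genes were lower past an adjusted p of 0.05 (summed level 2214 and 2619 CPM with aramis RNAi, against 5476 and 6939 CPM with bam RNAi) and 1 was higher. Of 12 muscle genes 7 were higher (47660 and 49338 CPM, against 24507 and 18939 CPM), of 8 hemocyte genes 6 (6318 and 9369 CPM, against 6077 and 3363 CPM), of 8 gut genes 4 (2.51 and 79.8 CPM, against 0.154 and 2.84 CPM) and of 5 fat body genes 2 (877 and 335 CPM, against 93.8 and 130 CPM). Of 14 eggshell genes 6 were lower (20.2 and 43.1 CPM, against 387 and 709 CPM), and of 13 genes of the ovarian soma 1 was higher and 1 lower (2689 and 3500 CPM, against 3365 and 2764 CPM). Over all tested genes 8.9% were higher and 7.04% lower past that adjusted p. No list was wholly at 0 in a library. The part of these cell types in the changes given here was not tested.

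The 96 genes together held 0.52% and 0.51% of all counts with aramis RNAi, against 0.383% and 0.453% with bam RNAi. One gene, lncRNA:CR42862, took 65.3% and 68.9% of these counts with aramis RNAi, against 60.4% and 60.3% with bam RNAi. The 6 most abundant genes took 80.5% and 81.1%, against 72.0% and 72.6%. Most of the others were rare, with a median of 99.9 normalised counts per library and 66 of 96 genes under a mean of 200.

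All fold changes set aramis RNAi over bam RNAi. A gene was called when its adjusted p, over all 11128 genes tested, was under 0.05 and its fold change was over 4. By this rule 3 of the 96 genes (3.1%) were higher and 8 (8.3%) were lower with aramis RNAi, against a background of 2.99% of all tested genes called higher and 3.25% called lower. Among tested genes with at least 200 counts the background was 3.34% higher and 3.15% lower. These were more abundant than the 96, with a median of 677 normalised counts against 99.9. Of the 511 genes with such a symbol and at least 10 counts under the limit, 1.6% were called higher and 2.9% lower. Their median standard error was 1.83, against 0.61 for the 96. Scaled by total counts the split of the 96 was 1 higher and 10 lower (167 and 622 of all tested genes). DESeq2 size factors gave 333 and 362 of all tested genes. Scaled to the germline markers the split of the 96 was 32 higher and 1 lower (2227 and 75 of all tested genes). Past the adjusted p with no fold limit, 10 of the 96 were higher and 11 lower, against 8.9% and 7.04% of all tested genes and 11.7% and 8.49% of those with at least 200 counts. The median log2 fold change was 0.04 over the 96 genes and -0.07 over all genes with at least 200 counts. Both aramis RNAi libraries lay above both bam RNAi libraries for 40 of the 96 genes and below them for 35, against 29.8% and 29.8% of all genes with at least 200 counts, and 21 genes overlapped. These counts describe the 96 genes and carry no test of the group. With 1 library left out, a genotype holds 1 library and the spread comes from the other genotype alone. Calls kept, gained or lost in such fits therefore do not show whether a change rests on the library left out.

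The limit on the total shaped which genes could appear. Of the 96, 22 held fewer than 100 counts over the aramis RNAi libraries, 7 of which were called lower, and 9 held fewer than 100 over the bam RNAi libraries, 1 of which was called higher. Such genes passed the limit mainly through the genotype in which they were high. Just inside it, asRNA:CR43629 held 79 and 62 counts with aramis RNAi, against 28 and 32 with bam RNAi, and lncRNA:CR45461 held 74 and 67, against 21 and 39. Just outside it, lncRNA:CR44330 held 13 and 8, against 58 and 118, and lncRNA:CR44966 held 1 and 11, against 91 and 94.

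**Figure D1:**
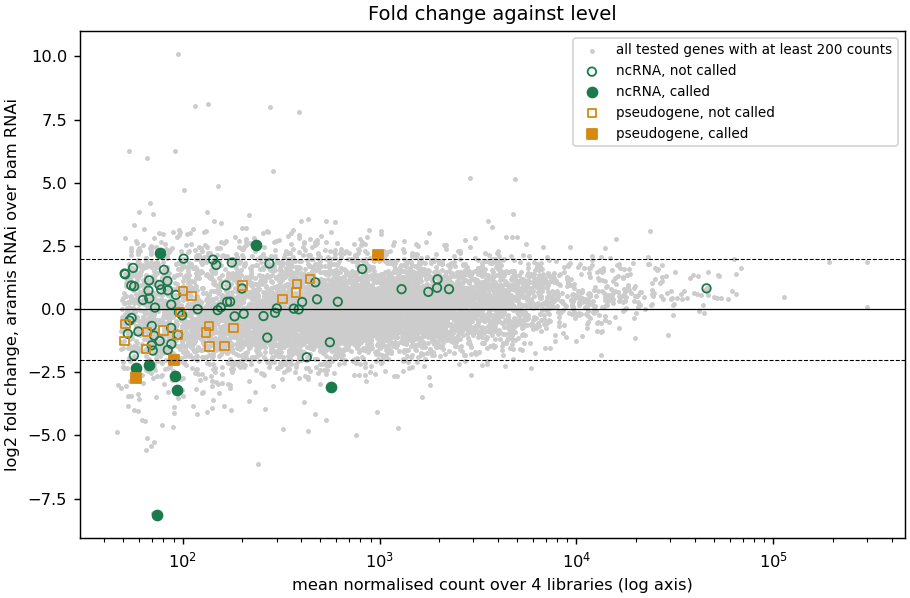
Mean normalised count over the 4 libraries (log axis) against the log2 fold change of aramis RNAi over bam RNAi for all tested genes with at least 200 counts (grey points), the 74 genes annotated as ncRNA (circles) and the 22 annotated as pseudogenes (squares). Filled symbols are the 11 called genes, dashed lines mark a 4-fold change, and lncRNA:CR32773 lies far below the others at -8.14.

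The genes most clearly tied to a known product were the microRNA hosts, whose span holds a microRNA gene on the same strand. There were 7, and in each the libraries of the genotypes did not overlap, beside 29.8% of all genes with at least 200 counts wholly higher and 29.8% wholly lower with aramis RNAi. Hosts of mir-275, mir-8, mir-14 and of the pair mir-279 and mir-996 were lower with aramis RNAi, and hosts of mir-iab-8 and of the pair mir-34 and mir-277 were higher. Scaled by total counts or to the germline markers, 4 hosts stayed below 0 and 3 above. MicroRNAs are cut from such transcripts in the nucleus, so a poly(A) library counts what is left of the host and not the mature microRNA.

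lncRNA:CR43857 (FBgn0264439, chromosome 2L, 7423820 to 7425932), the host of mir-275, had 79.1 and 157 normalised counts with aramis RNAi, against 844 and 1180 with bam RNAi. Its level was low in both aramis RNAi libraries, with a log2 fold change of -3.10 (standard error 0.50, adjusted p = 1.35e-07 by DESeq2). With any 1 library left out its log2 fold change lay between -3.66 and -2.66.

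lncRNA:CR43650 (FBgn0263659, chromosome 2R, 16829095 to 16839494), the single-exon host of mir-8, the fly member of the miR-200 family, had 16.4 and 32.1 normalised counts with aramis RNAi, against 107 and 115 with bam RNAi. The genotypes were well apart, with a log2 fold change of -2.20 (standard error 0.71, adjusted p = 0.0163 by DESeq2). With 1 library left out the log2 fold change lay between -2.74 and -1.77.

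lncRNA:CR43651 (FBgn0263660, chromosome 2R, 9552844 to 9553940), the host of mir-14, a microRNA known in flies as a suppressor of cell death, had 174 and 186 normalised counts with aramis RNAi, against 491 and 858 with bam RNAi. Its log2 fold change of -1.91 (standard error 0.48, adjusted p = 0.00158 by DESeq2) passed the adjusted p but not the 4-fold limit. With 1 library left out the log2 fold change lay between -2.25 and -1.46.

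lncRNA:CR31044 (FBgn0051044, chromosome 3R, 29214562 to 29219667), the host of mir-279 and mir-996, which share targets in fly development, had 269 and 373 normalised counts with aramis RNAi, against 760 and 837 with bam RNAi. Both aramis RNAi libraries were the lower ones, and the log2 fold change was -1.32 (standard error 0.45, adjusted p = 0.0242 by DESeq2). Without aramis RNAi replicate 1 it was -1.07, and without aramis RNAi replicate 2 it was -1.55. Scaled to the germline markers, its log2 fold change was -0.03.

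lncRNA:iab8 (FBgn0264857, chromosome 3R, 16831116 to 16923231) is transcribed through the bithorax complex and is the precursor of mir-iab-8, a microRNA that represses the Hox genes Ubx and abd-A. It had 118 and 135 normalised counts with aramis RNAi, against 33.7 and 21.5 with bam RNAi. Both aramis RNAi libraries were high, with a log2 fold change of 2.20 (standard error 0.66, adjusted p = 0.00994 by DESeq2). With 1 library left out the log2 fold change lay between 1.90 and 2.56. Of its exonic bases, 23.5% overlapped exons of genes on the other strand and 31.9% those of genes on its own strand.

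The neighbour of lncRNA:iab8 by rule was MSAmiP, a coding gene with 1733 shared exonic bases on the same strand. MSAmiP was not among the genes counted. The 2 posterior Hox genes beside lncRNA:iab8, named outside the rule, were also higher. abd-A, which specifies abdominal segments, had 12488 and 15328 normalised counts with aramis RNAi, against 5193 and 3353 with bam RNAi, a log2 fold change of 1.70 (standard error 0.42, adjusted p = 0.00127 by DESeq2). Abd-B had 684 and 742 normalised counts, against 266 and 177, a log2 fold change of 1.69 (standard error 0.46, adjusted p = 0.00385 by DESeq2). Ubx, farther along the complex, was rare, with 8.2 and 10.7 normalised counts, against 3.2 and 5.2. lncRNA:bxd, a noncoding gene between Ubx and abd-A, held 1 count over all libraries. The muscle and hemocyte lists given above moved in the same direction as lncRNA:iab8, and their part in this change was not tested.

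lncRNA:CR43459 (FBgn0263413, chromosome 3R, 10093761 to 10101356), the host of mir-34 and mir-277, had 257 and 200 normalised counts with aramis RNAi, against 73.7 and 62.7 with bam RNAi. Its log2 fold change of 1.74 (standard error 0.54, adjusted p = 0.0131 by DESeq2) passed the adjusted p but not the 4-fold limit. With 1 library left out that change ran from 1.58 to 1.93. A further microRNA host lay under the limit of 200 counts: lncRNA:let7C, from which let-7, mir-100 and mir-125 are known to be cut, held 55 and 59 counts, against 13 and 16. Its log2 fold change was 2.12 (standard error 0.84, adjusted p = 0.061 by DESeq2).

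**Figure D2:**
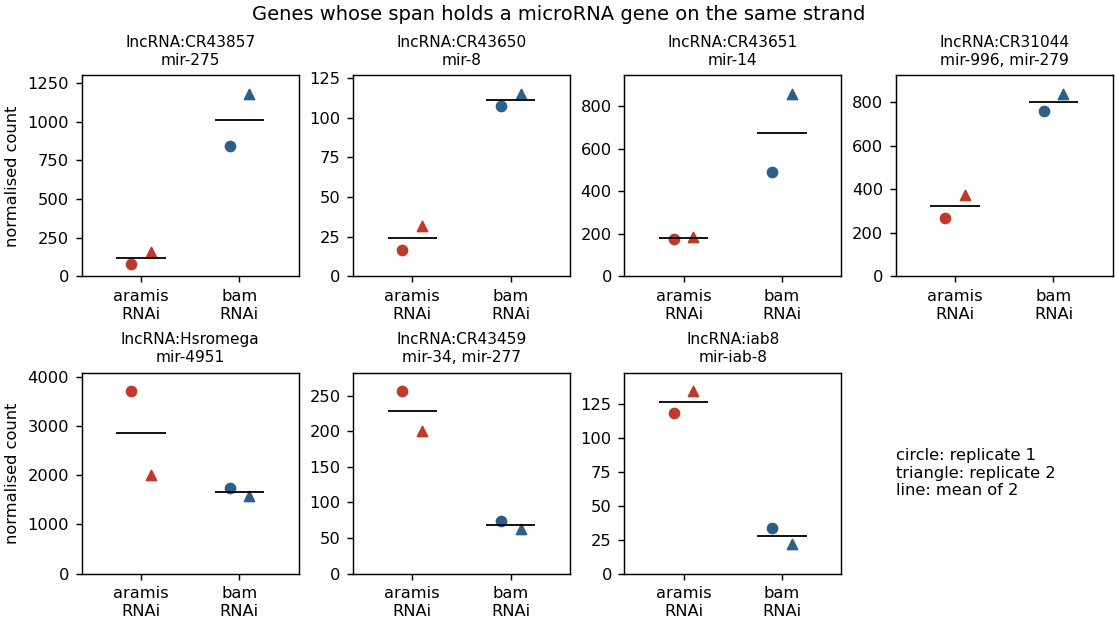
Normalised counts (linear axes from 0) of the 7 microRNA hosts in the aramis RNAi libraries (left, red) and the bam RNAi libraries (right, blue), with the mean of 2 libraries as a line. Hosts of mir-275, mir-8, mir-14 and of mir-279 with mir-996 lie lower with aramis RNAi, and hosts of mir-34 with mir-277 and of mir-iab-8 lie higher.

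lncRNA:Hsromega (FBgn0001234, chromosome 3R, 21296127 to 21317836), the heat-inducible gene whose nuclear transcripts gather RNA-binding proteins into omega speckles, also holds a microRNA gene, mir-4951. It had 3714 and 1994 normalised counts with aramis RNAi, against 1742 and 1567 with bam RNAi. The genotypes did not overlap, but aramis RNAi replicate 1 stood well above aramis RNAi replicate 2, and the log2 fold change of 0.79 (standard error 0.45) did not pass the test (DESeq2 adjusted p = 0.227). It was 0.29 without aramis RNAi replicate 1 and 1.18 without aramis RNAi replicate 2. The same change was 2.06 when scaled to the germline markers (adjusted p = 0.000172 by DESeq2) and 0.42 when scaled by total counts. Those scalings moved the median of all tested genes to 1.20 and -0.45.

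Of the 16 tested genes whose symbols start with Hsp and a digit, a list drawn up after values were seen, 5 were called lower and none higher, beside 3.25% and 2.99% of all tested genes. Some Hsp70 genes are near-identical copies, between which reads may have been split. Of the 16, 14 had a log2 fold change below 0, and 10 had one when scaled to the germline markers. Hsp26 had 510 and 500 normalised counts with aramis RNAi, against 2843 and 1385 with bam RNAi (log2 fold change -2.06), Hsp27 had 288 and 362, against 2978 and 1090 (-2.65), and Hsp70Bb had 43.1 and 20.3, against 545 and 440 (-3.95). All 3 were called lower. Hsp70Bc was also called, from few reads, and Hsp68 was called lower too, although bam RNAi replicate 2 lay between the 2 aramis RNAi libraries (202 and 105, against 1648 and 186), and Hsp83 passed the adjusted p without the fold limit (13053 and 11431, against 34630 and 20098). Hsp23 did not pass (2247 and 1388, against 1310 and 1703). asRNA:CR43481 (FBgn0263492, chromosome 3L, 9378160 to 9381119) lies between Hsp26 and Hsp23, antisense to Hsp67Ba (log2 fold change -1.29, adjusted p = 0.251 by DESeq2), with 22.6 and 26.7 normalised counts, against 80.0 and 97.0. Its log2 fold change was -1.85 (standard error 0.72, adjusted p = 0.0555 by DESeq2).

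Proteins that work with these RNAs were described by 5 lists. Of 6 proteins of omega speckles, 1 was lower past the adjusted p, the chromatin remodeler Iswi (1089 and 1520 normalised counts with aramis RNAi, against 5684 and 3319 with bam RNAi). Of 6 proteins of the roX complex, 1 was lower, the histone acetyltransferase mof (174 and 307, against 955 and 550). Of 16 cleavage and polyadenylation factors, 2 were lower, CstF64 and Cpsf6. Of 6 nuclear decay factors, 1 was lower, the exosome nuclease Dis3, and of 6 factors of nonsense-mediated decay none passed. None of the listed genes rose past the adjusted p. Of all tested genes 7.04% were lower and 8.9% higher past it, so 1 gene of a list of 6 says little about that list. The list medians were -0.66, -0.42, -0.75, -0.95 and -0.91 on the log2 scale, beside -0.09 over all tested genes. Scaled to the germline markers they were 0.59, 0.86, 0.55, 0.31 and 0.32, beside 1.20 over all tested genes.

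The roX RNAs themselves, which males use for dosage compensation, were near the floor. lncRNA:roX1 held 13 and 18 counts with aramis RNAi, against 9 and 10 with bam RNAi, and lncRNA:roX2 held 5 and 3, against 4 and 16. Of the other characterised genes looked for, lncRNA:noe, lncRNA:sphinx and lncRNA:yar held 58, 80 and 18 counts in all, and lncRNA:cherub, lncRNA:CRG and lncRNA:TS14 held none over the 4 libraries.

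lncRNA:CR42491 (FBgn0259993, chromosome X, 762615 to 763810) was the only one of the 96 whose span holds a small nucleolar RNA, snoRNA:Psi18S-531, which guides pseudouridylation of the 18S ribosomal RNA. It had 250 and 310 normalised counts with aramis RNAi, against 267 and 352 with bam RNAi, and the genotypes overlapped. The log2 fold change was -0.15 (standard error 0.48, adjusted p = 0.866 by DESeq2), and 50.5% of its exonic bases lie in exons of the ribosomal protein gene RpL22. The Uhg genes, noncoding hosts that carry many small nucleolar RNAs in their introns, have symbols outside the rule. All 7 that were measured had lower counts in both aramis RNAi libraries than in either bam RNAi library, an order seen in 29.8% of all genes with at least 200 counts. One of the 7, Uhg5, passed the adjusted p, as did 7.04% of all tested genes in that direction (429 and 323 normalised counts with aramis RNAi, against 830 and 1066 with bam RNAi, DESeq2 adjusted p = 0.0211). Their median log2 fold change was -0.69, and 0.62 when scaled to the germline markers.

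The most abundant genes lay higher with aramis RNAi, by amounts that depended on the scaling. lncRNA:CR42862 (FBgn0262109, chromosome 3L, 224106 to 230964) had 58504 and 58336 normalised counts with aramis RNAi, against 31618 and 34586 with bam RNAi. The libraries of a genotype were close to each other and the genotypes were apart, yet the log2 fold change of 0.82 (standard error 0.39) did not pass the test (DESeq2 adjusted p = 0.13). With 1 library left out that change ran from 0.76 to 0.88. The log2 fold change was 2.1 when scaled to the germline markers (adjusted p = 6.24e-06 by DESeq2) and 0.46 when scaled by total counts. Those scalings moved the median of all tested genes to 1.20 and -0.45.

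lncRNA:CR43264 (FBgn0262945, chromosome X, 5831898 to 5832215) had 3096 and 2369 normalised counts with aramis RNAi, against 961 and 1455 with bam RNAi. Its log2 fold change of 1.18 (standard error 0.43, adjusted p = 0.0414 by DESeq2) was past the adjusted p and under the fold limit, and edgeR gave an adjusted p of 0.0997. It did not pass DESeq2 without aramis RNAi replicate 1 (adjusted p = 0.553), without aramis RNAi replicate 2 (0.239) or without bam RNAi replicate 1 (0.0701), nor when scaled by total counts (0.80, adjusted p = 0.183 by DESeq2).

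The other abundant genes had aramis RNAi libraries above the bam RNAi libraries but did not pass the test. lncRNA:CR40469 (FBgn0058469, chromosome X, 122493 to 122706) had 2693 and 2340 normalised counts with aramis RNAi, against 1504 and 1304 with bam RNAi (log2 fold change 0.84, DESeq2 adjusted p = 0.137). lncRNA:CR42549 (FBgn0260722, chromosome 3R, 9548104 to 9551806) had 2396 and 1962, against 1079 and 1642 (0.68, adjusted p = 0.284 by DESeq2). asRNA:CR44029 (FBgn0264821, chromosome 4, 879374 to 884752) had 1650 and 1628, against 781 and 1118 (0.79, adjusted p = 0.193 by DESeq2). With 1 library left out these changes ran from 0.73 to 0.96, 0.41 to 1.00 and 0.56 to 1.06, in that order. Scaled to the germline markers, the log2 fold changes of lncRNA:CR40469, lncRNA:CR42549 and asRNA:CR44029 were 2.11, 1.99 and 2.09, and all 3 passed the adjusted p by DESeq2. They were 0.48, 0.30 and 0.42 under scaling by total counts, where none passed. The median of all tested genes was 1.20 under the germline marker scaling and -0.45 under scaling by total counts.

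Levels per length gave a different order from counts. As CPM per kilobase of exonic bases shared with no other gene, lncRNA:CR40469 averaged 695 with aramis RNAi and 498 with bam RNAi, lncRNA:CR42862 averaged 660 and 481, and lncRNA:CR43264 averaged 507 and 291. The next of the 96 genes, the pseudogene CR6900, averaged 114 and 74.3 CPM per kilobase. lncRNA:Hsromega, second by counts, averaged 7.79 and 5.82 CPM per kilobase over its 21560 unshared exonic bases. These bases are pooled over all annotated transcripts of a gene, so the order depends on that choice of length.

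Among genes with no known product, the most extreme was lncRNA:CR32773 (FBgn0052773, chromosome X, 4387676 to 4611385), which overlaps the gene rb on the same strand with no shared exonic base. It held 0 and 1 counts with aramis RNAi, whereas its normalised counts with bam RNAi were 130 and 166. It was at least 47.1-fold lower with aramis RNAi, taking the floor of 3 counts per library, and the fit gave a DESeq2 adjusted p of 1.84e-05. rb, which encodes a subunit of the adaptor complex for pigment granules, had 415 and 796 normalised counts, against 1099 and 398, with overlapping genotypes and a log2 fold change of -0.30. The fitted log2 fold change of lncRNA:CR32773 ran from -9.60 to -7.09 with 1 library left out.

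lncRNA:CR44953 (FBgn0266258, chromosome 3R, 29755190 to 29759040) had 6.2 and 31.0 normalised counts with aramis RNAi, against 135 and 204 with bam RNAi. The aramis RNAi libraries were both low but differed between themselves, and the log2 fold change was -3.19 (standard error 0.76, adjusted p = 0.000678 by DESeq2). Leaving out aramis RNAi replicate 1 gave -2.42.

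lncRNA:CR43963 (FBgn0264678, chromosome X, 12717624 to 12730953), which overlaps the corepressor gene Smr on the same strand, had 15.4 and 35.3 normalised counts with aramis RNAi, against 226 and 88.4 with bam RNAi. The genotypes did not overlap, and the log2 fold change was -2.64 (standard error 0.73, adjusted p = 0.00434 by DESeq2). That change was -2.13 without aramis RNAi replicate 1 and -1.80 without bam RNAi replicate 1.

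lncRNA:CR45433 (FBgn0266982, chromosome 3L, 19861458 to 19861869), a single exon 533 bases from Papss, had 26.7 and 11.8 normalised counts with aramis RNAi, against 88.4 and 105 with bam RNAi. Its log2 fold change was -2.33 (standard error 0.76, adjusted p = 0.018 by DESeq2). With any 1 library left out the change lay between -3.01 and -1.84.

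lncRNA:CR44289 (FBgn0265316, chromosome 3R, 27535831 to 27537903), a single exon with no exonic overlap, was the largest increase among the 96. It had 444 and 364 normalised counts with aramis RNAi, against 98.9 and 42.1 with bam RNAi, a log2 fold change of 2.52 (standard error 0.56, adjusted p = 0.000234 by DESeq2). Both aramis RNAi libraries were high, and the pair of bam RNAi libraries lay over 2-fold apart. The log2 fold change was 2.40 without aramis RNAi replicate 1. Its nearest protein-coding gene, CG12885, held no counts.

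A pair of neighbours on the X chromosome were both higher past the adjusted p, named here after their values were seen. lncRNA:CR45523 (FBgn0267079, 15691672 to 15692597) had 135 and 189 normalised counts with aramis RNAi, against 40.0 and 41.2 with bam RNAi (log2 fold change 1.99, standard error 0.60, adjusted p = 0.0104 by DESeq2). lncRNA:CR43132 (FBgn0262606, 15689490 to 15691146), upstream on the same strand, had 196 and 258, against 83.1 and 34.3 (1.95, standard error 0.61, adjusted p = 0.0131 by DESeq2). Both were just under the 4-fold limit, both had high aramis RNAi libraries, and whether they are separate transcripts cannot be told from gene counts. With 1 library left out the log2 fold change of lncRNA:CR45523 ran from 1.75 to 2.24. That of lncRNA:CR43132 ran from 1.44 to 2.73.

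**Figure D3:**
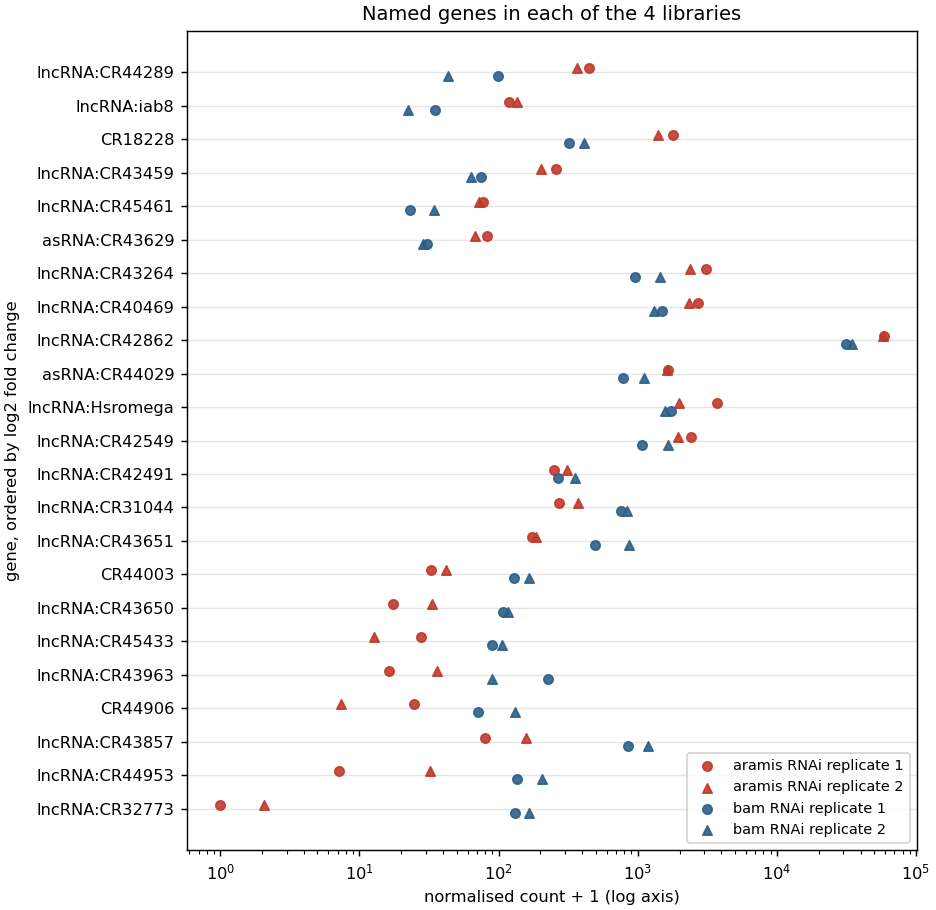
Normalised count + 1 (log axis) of each named gene in the 4 libraries, ordered by log2 fold change from the highest at the top, with aramis RNAi in red and bam RNAi in blue (circle, replicate 1; triangle, replicate 2). lncRNA:CR32773 lies at the left edge with aramis RNAi, with 0 and 1 counts, and lncRNA:CR42862 lies to the right of every other named gene.

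Of the 11 genes with the prefix asRNA:, 8 had a log2 fold change above 0 and the median was 0.78. None was called, and 1 passed the adjusted p, beside 11.7% of all genes with at least 200 counts past it in that direction. That gene, asRNA:CR44370 (FBgn0265508, chromosome 2R, 15226938 to 15232665), lies opposite Fs, which encodes the activin inhibitor Follistatin. It had 313 and 243 normalised counts with aramis RNAi, against 89.4 and 66.1 with bam RNAi, a log2 fold change of 1.84 (standard error 0.53, adjusted p = 0.00667 by DESeq2). Fs itself had a log2 fold change of 0.27 (adjusted p = 0.778 by DESeq2). Under scaling by total counts 6 of the 11 were above 0, and under scaling to the germline markers 10 were.

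How reads on overlapping genes were counted bears on these values. The kit keeps strand, but the strand setting of the counting is not given in the sources used here. Of 36 protein-coding genes whose exons lie wholly inside exons of genes on the other strand, 88.9% had 0 counts, of 291 inside exons on the same strand 92.4% had 0 counts, and of all protein-coding genes 16.0% had 0 counts. Genes inside an exonic overlap of either orientation thus mostly received no counts, and the exonic bases that the antisense genes share with coding genes may not have been counted for them. None of the 96 genes lies wholly inside such an overlap.

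By position, 8 of the 96 genes were hosts of small RNAs, 24 had exons opposite exons of a protein-coding gene, and 10 overlapped one on the same strand. A further 14 overlapped the span of one on the other strand without shared exonic bases. The other 40 overlapped no protein-coding gene and were taken as intergenic, though some shared exonic bases with other genes (58.1% for CR43281). The median log2 fold changes were -0.73, 0.04, -0.78, 0.18 and 0.33, beside -0.07 for all genes with at least 200 counts. Calls fell in the hosts (1 higher, 2 lower), the exonic antisense genes (1 higher), the same-strand overlaps (3 lower) and the intergenic genes (1 higher, 3 lower), where the shares over all genes with at least 200 counts were 3.34% higher and 3.15% lower. No gene that overlapped only the span of a coding gene on the other strand was called. Of these 14, 2 passed the adjusted p, both higher: lncRNA:CR43264, described above, and lncRNA:CR44281, which overlaps the Hedgehog receptor gene ptc. lncRNA:CR44281 had 501 and 357 normalised counts with aramis RNAi, against 94.7 and 151 with bam RNAi (log2 fold change 1.80, standard error 0.51, adjusted p = 0.00548 by DESeq2), while ptc had a log2 fold change of 0.27.

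**Figure D4:**
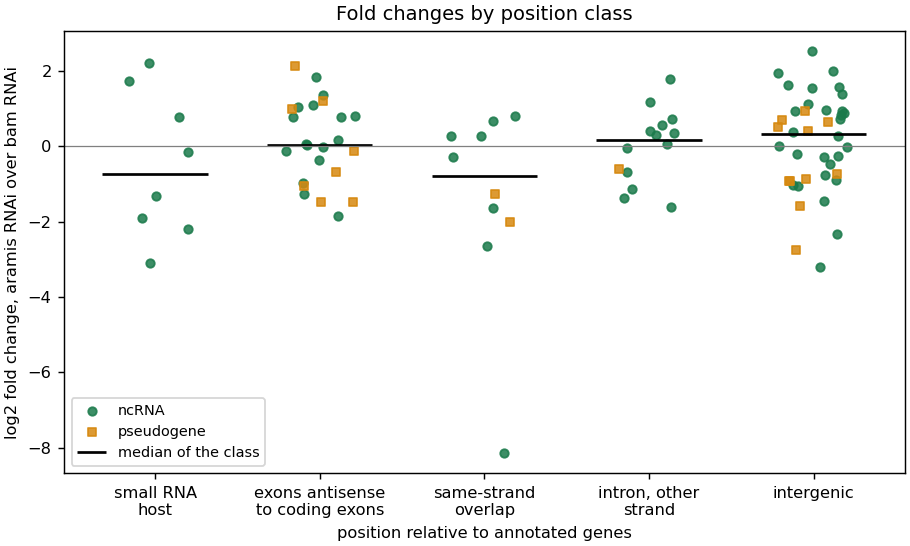
Log2 fold change of each of the 96 genes (aramis RNAi over bam RNAi) by position class, with ncRNA genes as circles, pseudogenes as squares and the class median as a line. The classes overlap widely, and the hosts of small RNAs spread from -3.10 to 2.20.

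The pseudogenes leaned lower and the ncRNA genes higher. The median log2 fold change was -0.71 over the 22 pseudogenes, 14 of them below 0, and 0.23 over the 74 ncRNA genes, 42 of them above 0. Scaled by total counts the medians were -1.07 and -0.12, and scaled to the germline markers they were 0.58 and 1.43. The direction of either group thus depended on the scaling. A change of scaling moves all genes by nearly the same amount, so it could hardly change the order of the 2 medians. Of the pseudogenes 1 was called higher (4.5%) and 2 lower (9.1%). Of the ncRNA genes 2 were called higher (2.7%) and 6 lower (8.1%). The shares over all genes with at least 200 counts were 3.34% higher and 3.15% lower.

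CR18228 (FBgn0037560, chromosome 3R, 8260706 to 8261898) was the pseudogene called higher, with 1785 and 1407 normalised counts with aramis RNAi, against 319 and 410 with bam RNAi. Both libraries of each genotype were close, with a log2 fold change of 2.13 (standard error 0.43, adjusted p = 4.3e-05 by DESeq2). Without aramis RNAi replicate 1 it was 1.97, and without bam RNAi replicate 1 it was 1.97, both under the fold limit. Scaled by total counts it was 1.76, also under that limit.

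The called decreases among pseudogenes were smaller in level. CR44906 (FBgn0266211, chromosome 2L, 19740839 to 19742506) had 23.6 and 6.4 normalised counts with aramis RNAi, against 70.5 and 131 with bam RNAi (log2 fold change -2.74, standard error 0.83, adjusted p = 0.00999 by DESeq2). CR44003 (FBgn0264745, chromosome 2L, 3171035 to 3172799), which shares 58 exonic bases with CG44002 on the same strand, had 31.8 and 40.6, against 127 and 164 (-2.01, standard error 0.63, adjusted p = 0.0129 by DESeq2). With 1 library left out the log2 fold change of CR44906 ran from -3.95 to -2.07. That of CR44003 ran from -2.18 to -1.82. CG44002 had 65.7 and 95.1 normalised counts, against 163 and 179 (log2 fold change -1.09, adjusted p = 0.175 by DESeq2).

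Each of the 96 genes was set beside the protein-coding gene that overlaps it or, failing that, lies nearest. An overlapping gene was found for 50, and for the other 46 the median distance was 528.5 bases, with 32 under 1000 bases. The neighbour was tested for 81, and in 56 of these pairs (69.1%) both fold changes had the same sign, with a Spearman correlation of 0.44 across pairs. Protein-coding genes with at least 200 counts and their nearest such gene gave 55.8% of 7574 pairs and a correlation of 0.15. Pairs share libraries and may share reads, so these are descriptions. The share was 29 of 41 for overlapping neighbours and 27 of 40 for the others, and 1 of 5 for the hosts of small RNAs.

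No pair had both genes called. lncRNA:CR43459 had a log2 fold change of 1.74 beside -0.61 for Fmr1, which lies 64 bases away on the other strand, and lncRNA:CR31044 had -1.32 beside 0.01 for the translation factor gene eEF1gamma, 505 bases away. lncRNA:CR44283 (86.3 and 83.3 normalised counts with aramis RNAi, against 16.8 and 37.8 with bam RNAi) had 1.63 without passing the test, 39 bases from CG8046, which was called higher at 2.56 with a DESeq2 adjusted p of 3.92e-06. The pseudogene CR43727 had -0.85, 90 bases from Smn, which encodes the survival motor neuron protein and was called lower at -2.11 with a DESeq2 adjusted p of 0.000313. At the edge of the limit, lncRNA:CR45461 had 76.0 and 71.6 normalised counts, against 22.1 and 33.5 (DESeq2 adjusted p = 0.184), and its neighbour Ttc30 had a log2 fold change of 1.36 (adjusted p = 0.0346 by DESeq2). There asRNA:CR43629 had a log2 fold change of 1.37 beside 1.15 for CG31522 (adjusted p = 0.19 and 0.0552 by DESeq2).

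**Figure D5:**
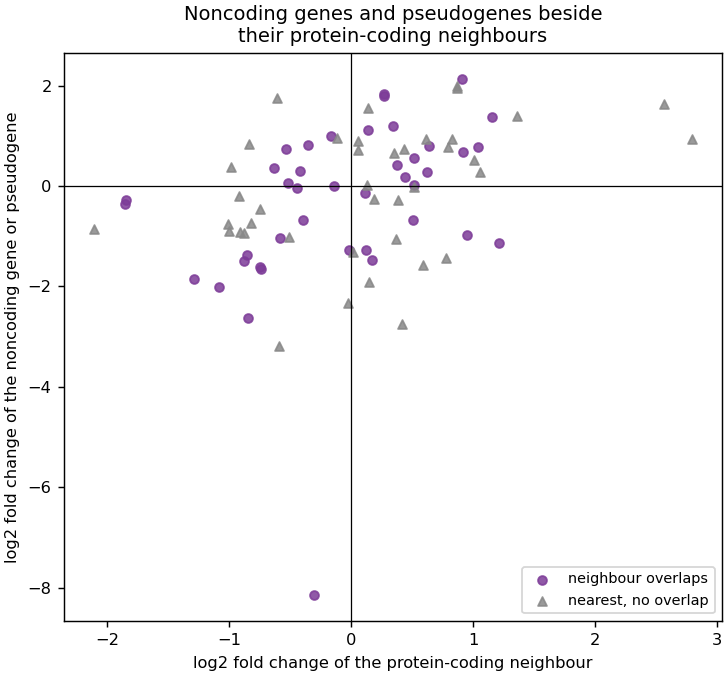
Log2 fold change of each noncoding gene or pseudogene (vertical axis) against that of its protein-coding neighbour (horizontal axis) for the 81 tested pairs, aramis RNAi over bam RNAi, with overlapping neighbours as circles and nearest genes without overlap as triangles. Of the pairs, 56 of 81 lie in the quadrants of equal sign, and lncRNA:CR32773 lies at the bottom with its neighbour rb near 0.

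By chromosome, all 5 genes on chromosome 4 had a log2 fold change above 0 and none passed the test, with a median of 0.79. Chromosome 4 genes as a whole were shifted as well: 60 of the 76 with at least 200 counts were above 0, with a median of 0.61. On chromosome 3L 13 of 19 genes lay below 0 (median -0.85, against -0.08 for all genes there with at least 200 counts), and on chromosome X 16 of 26 lay above 0 (median 0.23, against -0.15). Scaled by total counts 3 of 5, 13 of 19 and 12 of 26 genes kept those directions, and scaled to the germline markers 5, 4 and 22 did.

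Replicates differed most in the bam RNAi libraries. Of the 96 genes, 8 (8.3%) differed by over 2-fold between replicates of aramis RNAi and 16 (16.7%) between those of bam RNAi, against 6.0% and 25.2% of all genes with at least 200 counts. lncRNA:mimi was the widest in bam RNAi, with 389 and 498 normalised counts with aramis RNAi, against 604 and 128 with bam RNAi, so that the genotypes overlapped. lncRNA:CR44993 was the widest in aramis RNAi, with 13.3 and 69.5, against 165 and 88.4, a log2 fold change of -1.62 that did not pass the test (standard error 0.79, adjusted p = 0.144 by DESeq2).

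Leaving out a library changed how many of the 11 calls remained. Such fits hold 1 library in a genotype, so a lost call can come from the spread of the other pair. Without aramis RNAi replicate 1 the genes called were 3, all among the 11: lncRNA:CR32773, lncRNA:CR43857 and CR44906. Without aramis RNAi replicate 2, bam RNAi replicate 1 or bam RNAi replicate 2, 6 of the 11 were called each time. Scaled by total counts 9 of the 11 were called, and scaled to the germline markers 4 were, lncRNA:CR32773 as the only decrease, while 29 other genes were called in addition. edgeR called the same 11 genes.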

How the data were processed

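The authors deposited unscaled read counts for each gene, 1 table for each library. Per the submitters' processing notes, HISAT2 (version 2.1.0), featureCounts (version 1.4.6), DESeq2 (version 1.24.0) and the dm6 build were used, and the strand setting is not given in the sources used here. Symbols, positions and biotypes came from Ensembl release 115 (dm6 coordinates), in which 376 identifiers had no symbol. The genes described and all lists were chosen with earlier results of these data known.

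The Wald test of DESeq2 (version 1.42.0, R 4.3.3) was run on genes with at least 10 counts over 4 libraries, genotype as the only term, and p-values were adjusted by Benjamini-Hochberg over all tested genes. Normalised counts are counts divided by DESeq2 size factors. edgeR (version 4.0.16) quasi-likelihood tests, other scalings and filters, a replicate block and leaving out each library were alternatives. The fits were tested on simulated data. Same-numbered libraries did not deviate together, so they were not paired. Genes were named by rule: all calls without overlap between genotypes, the 6 most abundant genes, listed characterised genes, hosts of small RNAs, their neighbours, and the genes at the count limit. Genes named after their values were seen are those past the adjusted p only, the widest replicates, lncRNA:CR44283, CR43727, CR6900 and asRNA:CR43481. The Hox genes abd-A, Abd-B and Ubx were also named outside the rule. Intervals were not computed for single libraries, and counting floors cover counting error only.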

Additional observations from a re-analysis of the deposited data

How the results depend on the processing

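The main counts were 333 of all tested genes called higher and 362 lower, and among the 96 genes 3 called higher, 8 lower, 10 past the adjusted p higher and 11 lower. TMM scaling, edgeR and no count filter kept all 6 counts within 1.5 times and all 11 calls. Scaling by total counts, which moved the median of all genes to -0.45, gave 167 higher and 622 lower over all genes, and 1 called higher and 19 past the adjusted p lower among the 96. Scaling to the germline markers, which moved that median to 1.20, gave 2227 higher and 75 lower, and among the 96 genes 32 called higher, 1 lower, 45 past the adjusted p higher and 2 lower. At least 10 counts in every library gave 225 lower over all genes and 5 lower among the 96, since lncRNA:CR32773, lncRNA:CR44953 and CR44906 then left the test. The deviations of same-numbered libraries correlated at -0.256 (all genes), -0.565 (genes with at least 200 counts) and -0.242 (the 96 genes). With the replicate block, 212 of all genes were lower, and among the 96 genes 3 were called lower, 2 were past the adjusted p higher and 4 lower. A crossed replicate block, chosen after seeing the data, gave 16 past the adjusted p higher.

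With 1 library left out, counts over all genes ran from 85 to 504 higher and from 103 to 386 lower. Among the 96 they ran from 0 to 5 called higher, 3 to 5 lower, 0 to 12 past the adjusted p higher and 3 to 8 lower. The 0 came without aramis RNAi replicate 1 by DESeq2. A count limit of 100 gave 7 called higher, 15 lower and 18 past the adjusted p lower, and a limit of 500 gave 1 lower and 4 past the adjusted p lower. The shares over all genes at those limits are not given here, so these counts cannot be set against a background. lncRNA:CR42491 turned positive when scaled to the germline markers (1.15) and with a library left out, where it ran from -0.33 to 0.056 (0.026 without aramis RNAi replicate 1, 0.056 without the second bam RNAi library). The cause was not tested. Low counts limited precision: the median standard error was 0.61 over the 96 genes and 0.48 over all genes with at least 200 counts, on the log2 scale.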
